A study of Sus scrofa with 16 samples.

Results

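The genes described here are 40 genes of DNA replication and mitosis, chosen by name from knowledge of the cell cycle and found by symbol in a table of 29552 named genes. Earlier results of these data were known when they were chosen. All 40 were in the table and all 40 passed the filter on low counts. They were measured by polyA RNA sequencing in interstitial cells of the aortic valve, which make and keep up the leaflet's matrix, from pigs of 5 to 6 months. Male and female cells were cultured for 48 hours in Media 199 with 1% fetal bovine serum and antibiotics, either on tissue culture plastic or on PEG-norbornene hydrogels (modulus about 5.8 kPa). The submitters treat cells on gel as quiescent fibroblasts and cells on plastic as myofibroblasts. Each sex on each surface made 1 of 4 groups, with n = 4 biological replicates, and no group had a genetic change or another added agent. The labels do not say whether a replicate came from 1 animal or from pooled valves. They also do not say whether the same number on both surfaces marks the same animal. Libraries of the same sex and number deviated together from their group means (r from 0.13 to 0.49), and such a pair is called a culture here.

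A dividing cell first copies its DNA and then parts the copies. Before replication the MCM2 to MCM7 helicase is loaded on DNA, the ring-shaped clamp PCNA holds the polymerases, and ribonucleotide reductase and thymidylate synthase supply the nucleotides. E2F factors switch these genes on at the end of G1. Most mitotic genes come on later, in G2, under the MYB-MuvB complex and FOXM1, once repression by the DREAM complex has ended. Mitosis then runs through cyclin B with CDK1, the Polo and Aurora kinases, the spindle checkpoint and the APC/C ubiquitin ligase, and ends in cytokinesis. Valve interstitial cells of a healthy adult valve divide rarely, and low serum in culture tends to keep division low.

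Total counts ran from 16.93 to 27.48 M per library, with male gel 2 lowest. The smallest count of any of the 40 genes in any library was 30 (AURKB in male gel 2). All 7 interstitial cell markers (VIM, COL1A1, COL1A2, COL3A1, DCN, LUM, PDGFRA) were present in every library, the lowest value being 127 CPM (counts scaled to a common library total) of DCN. The summed level of 8 endothelial markers, all of them tested, was 150 to 271 CPM on gel and 192 to 542 CPM on plastic. By group means ERG was the largest part in every group. PECAM1 came next on gel (55.2 CPM in male and 69.3 CPM in female cells) and was at 37.7 and 62.2 CPM on plastic. CDH5 came next on plastic (43.7 and 79.7 CPM) and was at 17.1 and 20.9 CPM on gel. Over all libraries VWF, KDR and TEK were at 0.135 to 4.17, 0 to 2.22 and 0.508 to 6.31 CPM. TIE1 and EMCN were at 0.621 to 23.8 and 1.14 to 29.1 CPM, and ERG was at 92.8 CPM or more. How far the sum measures endothelial cells was not tested. Among leukocyte markers, CD163 was at 0 in all libraries and PTPRC reached at most 0.0351 CPM. LYZ, CSF1R, ITGAM and CD68 reached at most 0.132, 0.314, 0.444 and 0.685 CPM, but CD14 was present in every library, at 3.16 to 11.3 CPM. CPM here are scaled by TMM, a correction for differences in composition between libraries, but not by gene length, so they compare libraries and not genes.

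The first question was how these genes differed between plastic and gel. The 28 mitosis genes and the 12 replication genes moved apart. Averaged over the sexes, 15 of the 40 genes were higher on plastic, all of them mitosis genes, and 3 were lower, all of them replication genes (MCM7, PCNA and TYMS). Calls are by edgeR's quasi-likelihood test at a Benjamini-Hochberg adjusted p under 0.05 over 14530 tested genes. The called-higher share of the 40 was 37.5%, beside 18.5% of all tested genes, and the called-lower share was 7.5%, beside 19.8%. Of the 28 mitosis genes 53.6% were called higher. Of the 12 replication genes 25% were called lower, close to the share of all tested genes. The median log2 change was 0.65 for the mitosis genes and -0.15 for the replication genes, beside -0.04 for all tested genes. With the replicate number as a block, 24 genes were higher (beside 20.4% of all tested genes) and 4 lower (beside 20.8%). The 9 additional higher genes were CDK1, CCNB1, CCNB2, AURKA, BUB1B, TTK, CDC20, CENPE and BIRC5, with log2 changes without the block of 0.47 to 0.63, and the additional lower gene was RRM1. In bulk RNA a larger share of cells in a phase and more RNA per cell in that phase cannot be told apart.

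**Figure D1:**
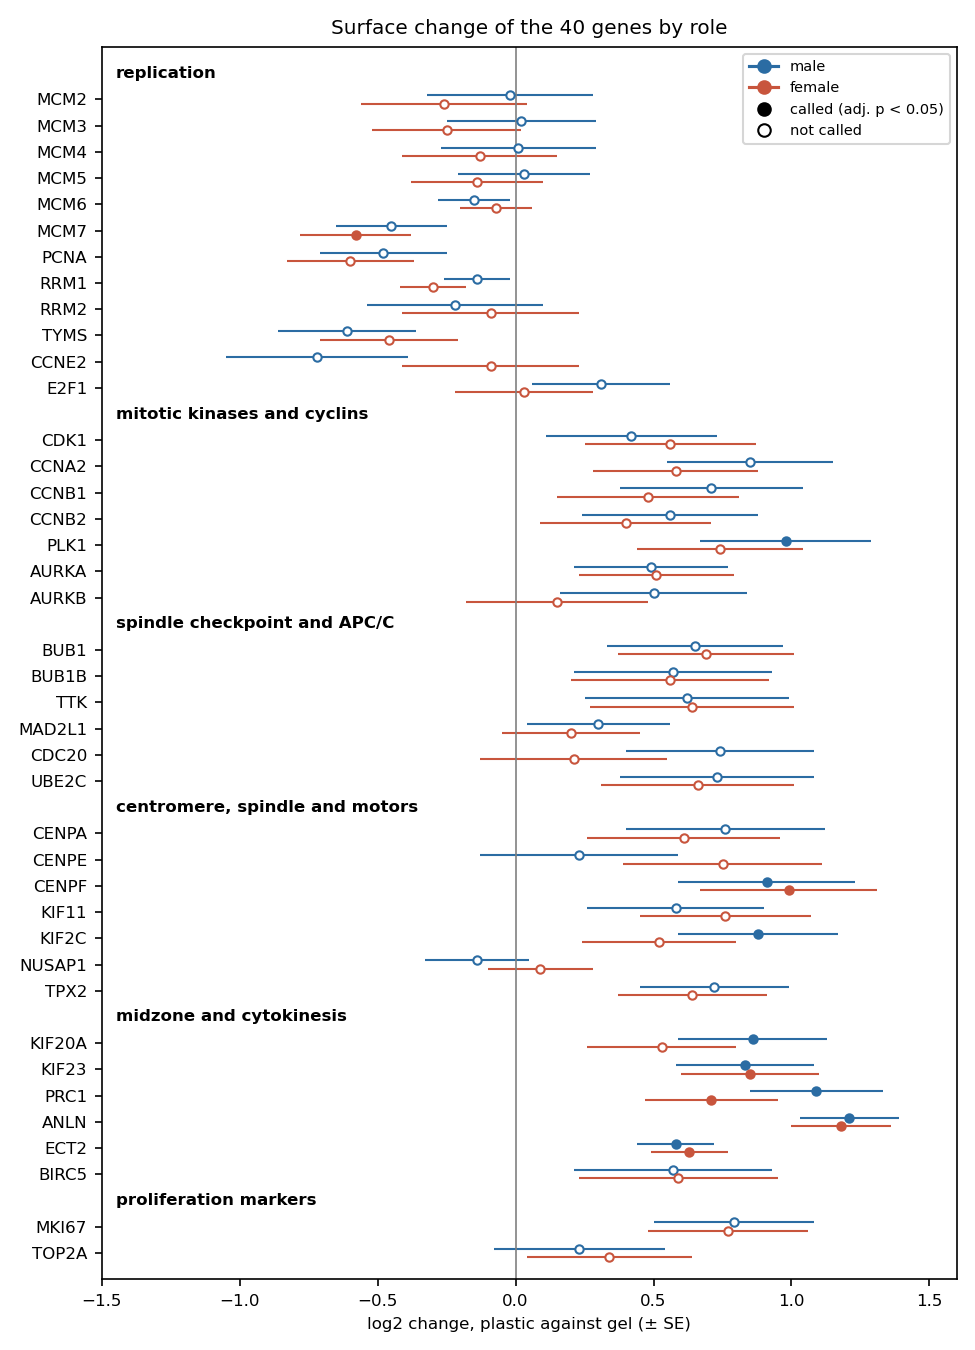
Log2 change on plastic against gel (x axis, with its standard error) for each of the 40 genes, grouped by role, in male and female cells; filled points passed the test. The replication genes run from -0.72 to 0.31, and the mitosis genes lie right of 0, up to 1.21, apart from NUSAP1 in male cells (-0.14).

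Both sets were also compared within each library. The summed CPM of the replication genes divided by that of the mitosis genes was 0.728, 0.589, 0.872 and 0.94 in male gel 1 to 4, and 0.365, 0.374, 0.414 and 0.47 in male plastic 1 to 4. In female cells it was 0.572, 0.744, 0.572 and 0.91 on gel, and 0.301, 0.387, 0.381 and 0.369 on plastic. The lowest gel library therefore lay above the highest plastic library in both sexes. Anillin (ANLN) gives a large part of the mitosis sum. Without it the ratio was 0.646 to 1.09 over the gel libraries and 0.348 to 0.593 over the plastic libraries, again with no overlap.

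The 2 sums behind this ratio changed by different amounts from culture to culture. The mitosis sum was higher on plastic in 8 of 8 cultures, by 1.14-fold in female 3 to 2.26-fold in male 1. The replication sum was lower on plastic in 6 of 8 cultures, with plastic-to-gel ratios from 0.623 in female 4 to 0.94 in female 2, and was 1.13 in male 1 and 1.05 in female 1. Male 1 and female 1, the cultures with the largest fold of the mitosis sum, were those whose replication sum was not lower. In the 4 cultures numbered 3 and 4 the replication sum was 0.623 to 0.79 of that on gel.

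**Figure D2:**
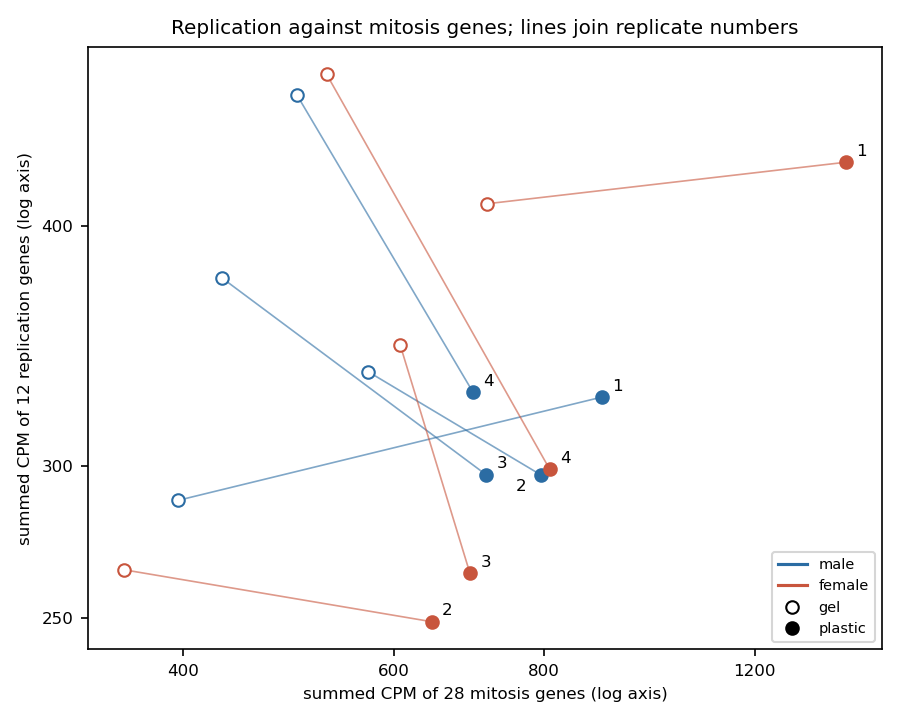
Summed CPM of the 12 replication genes (y axis, log scale) against summed CPM of the 28 mitosis genes (x axis, log scale) in each library, with a line from gel (open) to plastic (filled) for each culture. Every line runs to the right, and 6 of the 8 run downward; female plastic 1 lies farthest right, at 1430 CPM.

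Among the replication genes, MCM7 and the clamp gene PCNA were lower on plastic. MCM7, a subunit of the replicative helicase (chromosome 3, 8005890 to 8014047; this and later gene spans are RefSeq's on Sscrofa11.1), read 32.6, 33.6, 37.5 and 49 CPM on gel and 29.8, 28, 24.4 and 29.3 CPM on plastic in male cells. In female cells it read 43.1, 28.2, 36.5 and 51.7 CPM on gel and 39.1, 21.9, 22.3 and 23.3 CPM on plastic. The male groups did not overlap, the female groups overlapped through female plastic 1, and MCM7 was lower on plastic in 8 of 8 cultures. The mean log2 change was -0.52 (SE 0.14, adjusted p = 0.00919). PCNA (chromosome 17, 14137746 to 14142584) read 22.7, 27.4, 27.2 and 38.1 CPM on gel and 25.7, 18.2, 18.5 and 20.8 CPM on plastic in male cells and 32.9, 20.7, 25.7 and 46.2 CPM on gel and 28, 17.5, 16.5 and 21 CPM on plastic in female cells. It was lower on plastic in 7 of 8 cultures, male 1 being the exception, by a mean log2 change of -0.54 (SE 0.16, adjusted p = 0.0163). The groups overlapped in both sexes. Without the cultures male 4, female 1 and female 4 the PCNA change was -0.37 and not called (adjusted p = 0.0538).

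None of the other helicase subunits was called. MCM2 read 11.5, 9.09, 18.5 and 23.2 CPM on gel and 16, 14.4, 14 and 16.9 CPM on plastic in male cells. In female cells it read 17.8, 10.2, 13.7 and 24.9 CPM on gel and 21.3, 12.1, 11.3 and 10.9 CPM on plastic. MCM2 was higher on plastic in 4 cultures and lower in 4, with a mean log2 change of -0.14 (SE 0.21). The mean changes of MCM3, MCM4, MCM5 and MCM6 were -0.11, -0.06, -0.06 and -0.11. The difference between MCM7 and these subunits was not tested. As a share of the summed CPM of the 6 subunits, chosen for display after the values were seen, MCM7 gave 19.7% to 24.8% in male gel and 16.4% to 18.3% in male plastic. The female shares were 22.4% to 24.2% on gel and 16.3% to 20.5% on plastic. Since MCM7 was picked for its fall, these shares only describe it.

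Of the 3 nucleotide supply genes, 1 was called, and all had negative mean changes. TYMS, thymidylate synthase, which makes the thymine nucleotide of DNA (chromosome 6, 105642730 to 105660279), read 49.2, 57.7, 54.4 and 67.6 CPM on gel and 32.5, 34.9, 36.1 and 46.8 CPM on plastic in male cells. Its female values were 85.7, 44.7, 57.9 and 55.3 CPM on gel and 70.3, 30.2, 29.3 and 47.5 CPM on plastic. All 4 male plastic libraries were below all 4 male gel libraries, and the 8 cultures all had less TYMS on plastic. The mean change was -0.53 (SE 0.18, adjusted p = 0.0236), and -0.43 without female gel 1 (adjusted p = 0.0575). For RRM2, the regulated subunit of ribonucleotide reductase, male cells gave 28.3, 33.5, 38.2 and 59.3 CPM on gel and 36.8, 31, 31.2 and 37.7 CPM on plastic. Female cells gave 42.2, 23.1, 39.4 and 61.7 CPM on gel and 69.7, 27.7, 26.6 and 32.3 CPM on plastic. RRM2 was higher on plastic in 3 cultures and lower in 5, and its mean change of -0.16 (SE 0.22) was not called. The partner subunit RRM1 had a mean change of -0.22 (SE 0.09, adjusted p = 0.0591; 0.0399 with the block).

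Neither of the G1/S regulators on the list was called. CCNE2, cyclin E2, which drives entry into S phase with CDK2, read 4.49, 8.87, 4.25 and 8.26 CPM on gel and 5.03, 3.5, 3.2 and 3.89 CPM on plastic in male cells. Female cells had 6.96, 3.98, 3.63 and 7.43 CPM on gel and 7.06, 3.32, 3.65 and 6.67 CPM on plastic. It was lower on plastic in 5 of 8 cultures, with a male log2 change of -0.72 (SE 0.33, adjusted p = 0.117; 0.0428 with the block) and a female change of -0.09 (SE 0.32). E2F1, the activating E2F factor, read 6.07, 6.21, 9.13 and 12.2 CPM on gel and 11.3, 8.92, 9.9 and 11.6 CPM on plastic in male cells. Its female values were 9.37, 5.79, 7.64 and 12.2 CPM on gel and 11.1, 6.08, 9.63 and 8.99 CPM on plastic. E2F1 was the only replication gene with a positive mean change (0.17, SE 0.18), and it was higher on plastic in 6 of 8 cultures.

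**Figure D3:**
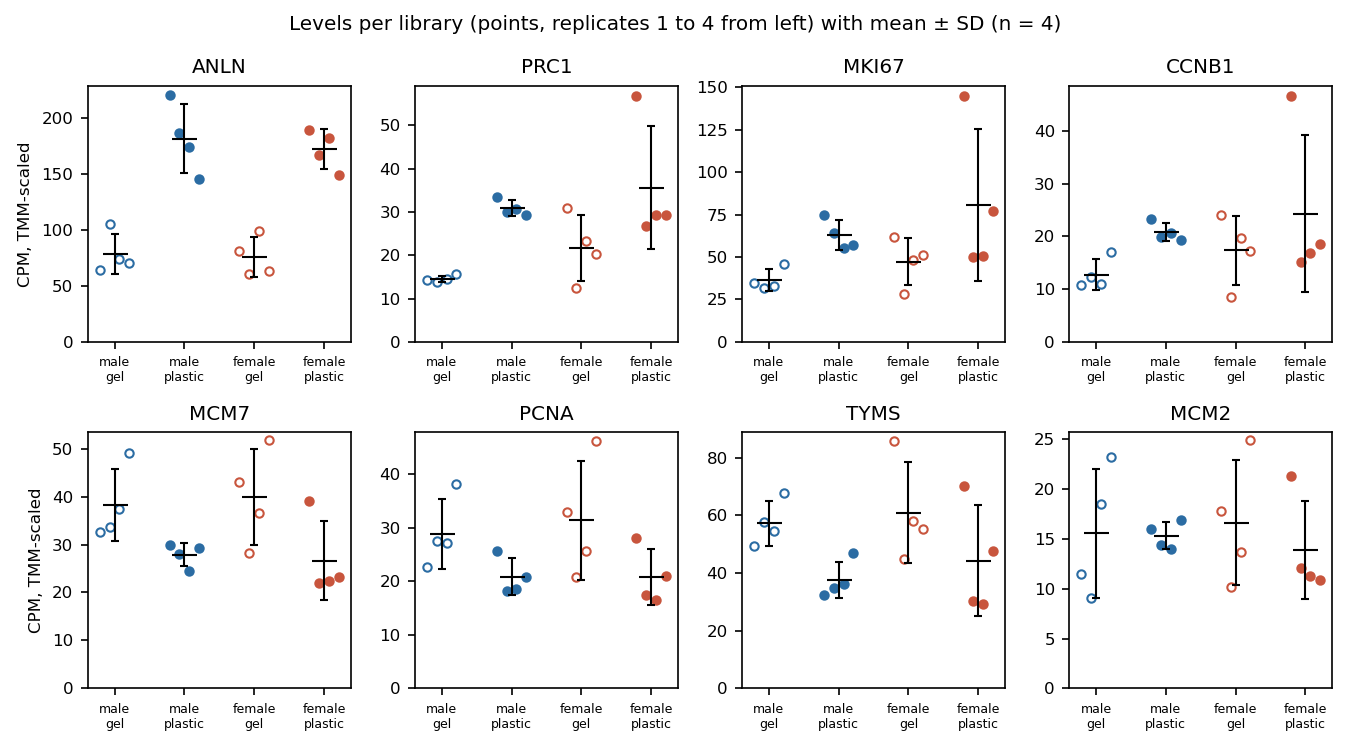
CPM of 8 of the genes in each library (points, replicates 1 to 4 from left to right) with mean ± SD (n = 4) for each group. ANLN does not overlap between surfaces in either sex, female plastic 1 is the highest female plastic library for all 8 genes, and MCM2 overlaps between surfaces.

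Among mitosis genes, those of the spindle midzone and cytokinesis had the highest median change of the role groups, 0.77, and 5 of 6 rose. ANLN, anillin, which links actin, myosin and septins in the contractile ring (chromosome 18, 37647952 to 37710939), read 64.1, 105, 73.5 and 70.7 CPM on gel and 220, 186, 174 and 145 CPM on plastic in male cells. Female cells read 81.3, 60.1, 98.9 and 62.9 CPM on gel and 189, 167, 182 and 149 CPM on plastic. The surfaces did not overlap in either sex, and the mean log2 change was 1.20 (SE 0.13, adjusted p = 1.39e-06). PRC1, which bundles midzone microtubules (chromosome 7, 55869749 to 55900640), read 14.3, 13.8, 14.5 and 15.6 CPM on gel and 33.5, 30, 30.7 and 29.4 CPM on plastic in male cells. Its female levels were 30.9, 12.5, 23.2 and 20.4 CPM on gel and 56.9, 26.8, 29.4 and 29.4 CPM on plastic. PRC1 rose by 0.90 (SE 0.17, adjusted p = 0.000547), without overlap in male cells and with overlap in female cells through female gel 1.

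ECT2, the exchange factor that activates RhoA at the cleavage plane (chromosome 13, 111248215 to 111310746), read 20.9, 26.8, 18.3 and 20 CPM on gel and 35.3, 32.5, 27.8 and 32.9 CPM on plastic in male cells. In female cells the values were 24.6, 18.5, 26.5 and 23.1 CPM on gel and 42.9, 30.6, 35.6 and 34.7 CPM on plastic. It did not overlap between surfaces in either sex and rose by 0.61 (SE 0.10, adjusted p = 0.000138). KIF23, a motor of the centralspindlin complex that binds ECT2 at the midzone, had 14.2, 17.6, 16.8 and 18.5 CPM on gel and 34, 29.7, 29.9 and 25.3 CPM on plastic in male cells. For female cells the values were 24, 12.2, 24.6 and 19.7 CPM on gel and 58.5, 23.8, 27.3 and 35.5 CPM on plastic. Its rise was 0.84 (SE 0.18, adjusted p = 0.00119). KIF20A, a motor that carries the chromosomal passenger complex to the midzone, read 14.3, 16, 16.7 and 17 CPM on gel and 34.2, 29.8, 25.2 and 27.1 CPM on plastic in male cells, without overlap. It read 31.8, 14.8, 27.3 and 20.5 CPM on gel and 60, 24.8, 24.5 and 27.1 CPM on plastic in female cells, with overlap, and rose by 0.70 (SE 0.19, adjusted p = 0.00775). BIRC5, survivin, a member of that passenger complex, had a mean change of 0.58 (SE 0.25, adjusted p = 0.0855; 0.0254 with the block).

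Of the 7 genes of the centromere, spindle and its motors, 5 rose. CENPF, a large kinetochore protein that builds up in G2 (chromosome 9, 128948386 to 129012241), read 26.2, 48.8, 24.1 and 34.4 CPM on gel and 71.5, 66.6, 53.5 and 58.4 CPM on plastic in male cells. Female cells read 59.3, 23.8, 44.2 and 36.3 CPM on gel and 138, 49.7, 52.3 and 84.7 CPM on plastic. It rose in 8 of 8 cultures, by a mean of 0.95 (SE 0.23, adjusted p = 0.00315). TPX2, which activates Aurora A and nucleates spindle microtubules, read 15.6, 19.3, 17.1 and 21.7 CPM on gel and 35.1, 31.1, 28.4 and 26.3 CPM on plastic in male cells and 34, 14.3, 24.5 and 22.6 CPM on gel and 62.2, 23.3, 28.2 and 34.8 CPM on plastic in female cells. Its rise was 0.68 (SE 0.19, adjusted p = 0.00983), with no overlap between the male groups. KIF2C, a kinesin that takes microtubules apart at centromeres, had 4.88, 2.94, 5.25 and 4.4 CPM on gel and 8.22, 8.66, 7.77 and 7.73 CPM on plastic in male cells. The female values were 6.78, 3.23, 6.62 and 6.12 CPM on gel and 14, 6.45, 6.64 and 5.57 CPM on plastic, and the rise was 0.70 (SE 0.20, adjusted p = 0.011).

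KIF11, the motor that pushes spindle poles apart, read 13.2, 20, 16.1 and 21.6 CPM on gel and 31, 27.4, 21.3 and 26.2 CPM on plastic in male cells. It read 25.1, 11.8, 21 and 21.8 CPM on gel and 63.6, 20, 20.6 and 30.5 CPM on plastic in female cells and rose by 0.67 (SE 0.22, adjusted p = 0.0254). Leaving out male gel 1, male plastic 1 or female gel 2 ended the KIF11 call, at adjusted p of 0.0518, 0.051 and 0.0504, and leaving out the cultures male 4, female 1 and female 4 did so at 0.0524. CENPA, the histone H3 variant that marks the centromere, read 2.49, 2.82, 2.5 and 4.26 CPM on gel and 6.05, 5.73, 4.53 and 4.18 CPM on plastic in male cells. Its female values were 5.84, 1.93, 4.55 and 3.62 CPM on gel and 11.4, 3.6, 4.79 and 4.6 CPM on plastic, with overlap in both sexes. CENPA rose by 0.69 (SE 0.25, adjusted p = 0.0408), a call lost without any 1 of 10 libraries (male gel 1, 2 or 3, male plastic 1, 2 or 3, female gel 2, 3 or 4, or female plastic 1), at adjusted p from 0.051 to 0.101. It was 0.44 and not called without both male gel 2 and female plastic 1. CENPE, a kinetochore motor, and NUSAP1, a microtubule-binding protein, were not called, at 0.49 (SE 0.26) and -0.02 (SE 0.13). Male gel 2 was unlike the other male gel libraries here, with 60.7 CPM of CENPE against 17.2 to 27.1, and 4.01 CPM of CDC20 against 8.61 to 9.6. Male gel 2 was also the library of lowest depth, whose part in these values was not tested.

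Cyclins and kinases of mitotic entry all had positive mean changes, and 2 of 7 were called. CCNA2, cyclin A2, which acts in S phase and at mitotic entry, read 5.51, 5.82, 4.62 and 6.37 CPM on gel and 11.9, 8.79, 9.23 and 10.2 CPM on plastic in male cells. Female cells read 9.05, 3.66, 8.76 and 6.56 CPM on gel and 18.7, 7.34, 6.99 and 8.94 CPM on plastic, and the mean rise was 0.71 (SE 0.21, adjusted p = 0.0143; 0.57 and 0.0761 without the cultures male 4, female 1 and female 4). PLK1, the Polo kinase, read 5.33, 5.25, 5.96 and 6.06 CPM on gel and 12.9, 10.7, 9.63 and 11.5 CPM on plastic in male cells, without overlap. Its female values were 10.2, 4.57, 9.37 and 8.01 CPM on gel and 25.1, 7.9, 9.41 and 11.3 CPM on plastic, and the mean rise was 0.86 (SE 0.21, adjusted p = 0.00454). PLK1 was higher on plastic in 8 of 8 cultures, though by only 0.01 in female 3. CCNB1, cyclin B1 (chromosome 16, 47338239 to 47348385), read 10.8, 12.2, 11 and 17 CPM on gel and 23.3, 19.9, 20.7 and 19.3 CPM on plastic in male cells. It read 24.1, 8.54, 19.7 and 17.2 CPM on gel and 46.6, 15.2, 16.9 and 18.6 CPM on plastic in female cells. The male groups did not overlap, but the mean change of 0.60 (SE 0.23) just missed the threshold (adjusted p = 0.0541; 0.00689 with the block). It passed without male gel 4 (adjusted p = 0.0372), female gel 1 (0.0334) or female plastic 2, 3 or 4 (0.032, 0.0399 and 0.0455).

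CDK1, the catalytic partner of cyclin B, had 5.89, 6.55, 6.6 and 9.38 CPM on gel and 11.9, 8.49, 8.34 and 9.26 CPM on plastic in male cells. In female cells CDK1 had 10.3, 4.37, 7.71 and 8.51 CPM on gel and 20.9, 6.92, 8.84 and 8.77 CPM on plastic. It was higher on plastic in 7 of 8 cultures, with a mean change of 0.49 (SE 0.22, adjusted p = 0.0926; 0.0208 with the block; 0.0484 without female plastic 2). CCNB2, AURKA and AURKB had mean changes of 0.48 (SE 0.22), 0.50 (SE 0.20) and 0.32 (SE 0.24), none of them called. AURKB, the kinase of the chromosomal passenger complex, was also not called with the block (adjusted p = 0.265).

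In the group of the spindle checkpoint and the APC/C, 2 of 6 genes rose. BUB1, a checkpoint kinase at kinetochores, read 7.44, 8.53, 7.64 and 8.71 CPM on gel and 14.8, 11.6, 13.4 and 10.8 CPM on plastic in male cells. It read 15.4, 6.42, 9.85 and 9.57 CPM on gel and 32.3, 10.2, 10.3 and 13.8 CPM on plastic in female cells and rose by 0.67 (SE 0.23, adjusted p = 0.0272), a call lost without male plastic 1 (0.0536) or female gel 2 (0.0549). UBE2C, the ubiquitin-conjugating enzyme of the APC/C, had 6.94, 5.2, 9.09 and 7.58 CPM on gel and 13.2, 12.5, 12.3 and 10.1 CPM on plastic in male cells. Its female values were 11.8, 5.43, 12.3 and 10.7 CPM on gel and 32.2, 8.46, 9.99 and 12.9 CPM on plastic. The UBE2C rise was 0.70 (SE 0.25, adjusted p = 0.0345), lost without any 1 of 7 libraries (male gel 1 or 2, male plastic 1, 2 or 3, female gel 2 or female plastic 1), at adjusted p from 0.0545 to 0.0716. Without female plastic 1 its log2 change was 0.41. It was also not called by limma-voom (0.62, adjusted p = 0.0623), without the culture female 1 (0.45), without the cultures male 4, female 1 and female 4 (0.46) or without both male gel 2 and female plastic 1 (0.35). CDC20, the APC/C activator that the checkpoint holds back, had 9.36, 4.01, 8.61 and 9.6 CPM on gel and 15, 13.3, 11.6 and 13.2 CPM on plastic in male cells. The female values were 17, 7.24, 12.2 and 11.1 CPM on gel and 26, 8.56, 11 and 9.24 CPM on plastic. CDC20 was not called (0.47, SE 0.24, adjusted p = 0.133; 0.0284 with the block), nor were BUB1B (0.57, SE 0.26), TTK (0.63, SE 0.26) and MAD2L1 (0.25, SE 0.18).

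Of 2 common proliferation markers, 1 was called. MKI67, Ki-67, which coats mitotic chromosomes and is absent from resting cells (chromosome 14, 137266622 to 137296312), read 34.9, 31.5, 33.2 and 46 CPM on gel and 75, 64.2, 55.5 and 57.1 CPM on plastic in male cells, without overlap. In female cells it read 61.6, 28.2, 48.5 and 51 CPM on gel and 145, 50.2, 50.7 and 77.1 CPM on plastic. It was higher on plastic in 8 of 8 cultures, though by only 0.06 in female 3, with a mean rise of 0.78 (SE 0.21, adjusted p = 0.0067). TOP2A, the topoisomerase that untangles sister DNA, read 35.4, 58.7, 41.3 and 54.3 CPM on gel and 61.6, 62.9, 48.5 and 49.1 CPM on plastic in male cells. Its female values were 79.7, 32, 58.6 and 54.6 CPM on gel and 128, 43.4, 49.1 and 64.5 CPM on plastic. TOP2A overlapped between surfaces in both sexes, and its mean change of 0.29 (SE 0.22, adjusted p = 0.319) was not called, nor was it with the block (adjusted p = 0.0886).

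**Figure D4:**
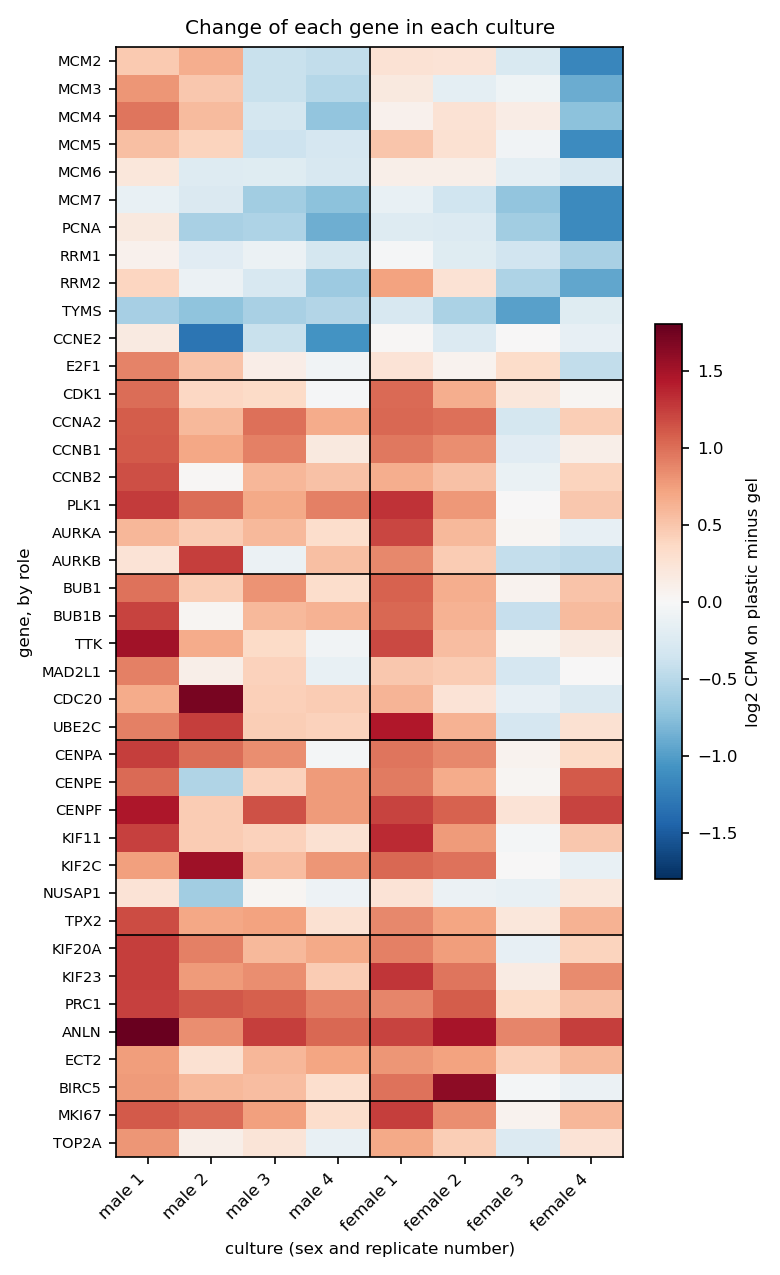
Log2 CPM on plastic minus gel (colour) for each gene (rows, by role) in each culture (columns). ANLN, PRC1, ECT2 and KIF23 are positive in all 8 cultures and TYMS and MCM7 negative in all 8; female 3 is pale for the mitosis genes, and male 4 and female 4 are negative for all 12 replication genes.

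Counted over cultures, 9 of the 28 mitosis genes were higher on plastic in 8 of 8 (beside 14.2% of all tested genes) and 22 in at least 7 (beside 24.9%). The 9 were PLK1, BUB1, CENPF, TPX2, KIF23, PRC1, ANLN, ECT2 and MKI67. In female 3 the changes of PLK1, BUB1 and MKI67 were only 0.01, 0.06 and 0.06. Of the 12 replication genes, 2 were lower in 8 of 8 (beside 13.3%) and 4 in at least 7 (beside 27.6%), both close to the share of all tested genes. The size of the mitosis change differed between cultures. Its median over the 28 genes was 1.10 in male 1, 1.00 in female 1, 0.72 in female 2, 0.63 in male 2, 0.59 in male 3, 0.43 in male 4, 0.40 in female 4 and 0.00 in female 3, where 14 of 28 were higher. The median over the 12 replication genes was 0.29 in male 1 and 0.10 in female 1, and -0.82 in female 4 and -0.52 in male 4, where 12 of 12 were lower. In all 8 cultures the mitosis median lay above the replication median.

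Levels also differed between cultures on 1 surface. Female plastic 1 was the highest of its group for 28 of 28 mitosis and 12 of 12 replication genes, with 1430 CPM of summed mitosis genes beside 645 to 809 in female plastic 2 to 4. It also had the highest endothelial marker sum, 542 CPM, beside 203 to 433 CPM. Its summed myofibroblast markers (ACTA2, TAGLN and CNN1) were the lowest of its group, 15200 CPM beside 20500 to 29500 CPM. On gel, female 1 was highest for 22 of 28 mitosis genes and female gel 2 lowest for 27. For replication genes the order on gel was another: male gel 4 and female gel 4 were each highest for 11 of 12 genes, including all 6 MCM subunits. Those 2 libraries had the highest endothelial sums on gel too, 258 and 271 CPM. They also had the lowest myofibroblast sums of their groups, 3830 and 3550 CPM. Female gel 1 was at 3830 CPM, beside 8050 and 8300 CPM in female gel 2 and 3. Male plastic 4 was the lowest of its group, at 21900 CPM beside 25700 to 27200 CPM. The part of endothelial cells or of myofibroblast state in these levels was not tested, but the counts were repeated without those cultures. Without the cultures male 4, female 1 and female 4, 13 genes rose and 2 fell on plastic in the mean of the sexes, and without female 1 alone 15 rose and 4 fell. The shares of all tested genes called in these fits are not given, so the counts are a description.

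Within each sex fewer calls were made. In male cells 8 genes rose (20%, beside 12.9% of tested genes) and 0 fell (beside 12.9%). The 8 were PLK1, CENPF, KIF2C, KIF20A, KIF23, PRC1, ANLN and ECT2. At an unadjusted p under 0.05, 16 of the 40 passed, a share close to that of all genes (5442 of 14530). DESeq2 called 11 higher and 0 lower, and by it 19 of the 40 passed at an unadjusted p under 0.05, beside 5854 of all its genes. The share of all genes it called is not given, so its count is a description. With the block 18 rose (beside 15.5% of all tested genes), and TYMS and CCNE2 fell (beside 14.2%). Male CPM did not overlap between surfaces for 16 genes that were higher (40%, beside 14.8%) and 2 that were lower (5%, beside 14%). The male count of 8 was 4 without male gel 1, 3 without male plastic 1, 5 without male plastic 2 or 4, and 15 without female plastic 1. In a fit of the 8 male libraries alone 17 rose and 1 fell. There 27 of the 40 passed at an unadjusted p under 0.05, beside 4876 of all its genes. When 1 library was left out, 2859 to 3961 of all genes were called in either direction, beside 3748 in the main fit.

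PRC1, ANLN and ECT2 kept their male calls without any 1 library, but ECT2 lost it without the cultures male 4, female 1 and female 4 (adjusted p = 0.0518). PLK1 (0.98, SE 0.31) lost its call without male gel 1 or 2 or male plastic 1 or 4 (adjusted p from 0.0542 to 0.0696), and KIF2C (0.88, SE 0.29) without male gel 2 or 4 or any male plastic library (0.0548 to 0.0832). KIF20A (0.86, SE 0.27) lost it without male gel 1 or male plastic 1 or 2 (0.0538 to 0.0743), and KIF23 (0.83, SE 0.25) without male gel 1 or male plastic 1 (0.0576 and 0.0624). CENPF (0.91, SE 0.32, adjusted p = 0.0458) lost its call when any 1 of 10 libraries was left out, namely male gel 1, 3 and 4, the 4 male plastic libraries, female gel 3 and 4, or female plastic 4 (adjusted p from 0.0518 to 0.116).

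In female cells 5 genes rose, CENPF (0.99, SE 0.32), KIF23 (0.85, SE 0.25), PRC1 (0.71, SE 0.24), ANLN (1.18, SE 0.18) and ECT2 (0.63, SE 0.14), all of which rose in male cells too. Their share, 12.5%, is close to the background share (12.7% of tested genes), so the count is no result about these genes. MCM7 was the only gene that fell (2.5%, beside 11.3%), at -0.58 (SE 0.20, adjusted p = 0.0483). With the block 11 rose (beside 14.5% of all tested genes), and MCM7, PCNA and TYMS fell (beside 13.1%). Non-overlapping CPM were found for 2 higher genes, ANLN and ECT2 (5%, beside 13.7%), and 0 lower (beside 14%). The female count of 5 was 2 without female gel 2 or female plastic 1, 3 without female gel 3 or 4, 9 without female plastic 2, and 2 in a fit of the 8 female libraries. Without the cultures male 4, female 1 and female 4 it was 1. That fit keeps only female 2 and female 3 of the female cultures. In it 3747 of all genes passed at an unadjusted p under 0.05, beside 5163 in the main fit.

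ANLN and ECT2 kept their female calls without any 1 library. ECT2 lost its call without the cultures male 4, female 1 and female 4 (adjusted p = 0.124), though its log2 change there was 0.57, beside 0.63 in the main fit. CENPF lost its call without female gel 2, 3 or 4 or female plastic 1 or 4 (adjusted p from 0.0577 to 0.134), and KIF23 without female gel 2 or female plastic 1 (0.0588 and 0.0724). PRC1 was not called without male gel 3, any male plastic library, female gel 2, 3 or 4, or female plastic 1 (0.0504 to 0.166). Without female plastic 1 the log2 changes of CENPF, KIF23 and PRC1 were 0.62, 0.53 and 0.40. The MCM7 call held without male gel 2, male gel 4, female gel 2 or female plastic 1, and was lost without any 1 of the other 12 libraries (0.0524 to 0.162).

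The second question was whether the sexes differed. No gene of the 40 was called between female and male cells on gel (0 of 40, beside 0.103% of tested genes) or on plastic (0 of 40, beside 0.124%), by edgeR, DESeq2 or limma-voom. Over all tested genes, 0.00688% were called higher in female cells on gel and 0.0964% lower, and on plastic 0.0275% higher and 0.0964% lower. No member separated the sexes without overlap on gel (background 0.895% higher and 1.14% lower) or on plastic (background 1.27% higher and 1.58% lower). At an unadjusted p under 0.05 there was 1 on gel, PRC1 (0.58 higher in female cells, SE 0.24, adjusted p = 0.852), and 0 on plastic. On gel 35 of the 40 changes were positive, that is, higher in female cells, with a median of 0.24, and on plastic 30 were, with a median of 0.23. That direction on plastic rested on female plastic 1: without the culture female 1, 4 of 40 were positive on plastic and 33 on gel. The difference between the sexes in the response to plastic was also called for 0 of 40 genes (beside 0% of tested genes). At an unadjusted p under 0.05 there were 0 of 40, and 1 with the block, while DESeq2, limma-voom and the fit with the block called 0. The widest differences between the sexes in the response were 0.63 for CCNE2 (SE 0.46) and -0.54 for CDC20 (SE 0.48), neither of them called.

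The third question was whether related cell cycle genes outside the 40 did the same. Of 55 other mitosis genes, 18 rose (32.7%, beside 18.5% of all tested genes) and 2 fell (3.64%, beside 19.8%) in the mean of the sexes, with a median of 0.48. With the block 29 rose (beside 20.4% of all tested genes) and 1 fell (beside 20.8%). Those with the smallest adjusted p were CDC25B, a phosphatase that activates CDK1 (0.52, SE 0.10), CEP55, of the abscission site (0.93, SE 0.21), CKAP2, a spindle protein (0.82, SE 0.18), and KIF14, a midbody motor (1.19, SE 0.31). The genes that fell were the checkpoint genes ZW10 (-0.26, SE 0.08) and BUB3 (-0.15, SE 0.06), the latter not called with the block (adjusted p = 0.0627). Of 38 other replication genes, 2 rose (5.26%) and 7 fell (18.4%, close to the share of all tested genes), with a median of -0.01. GINS2, of the replicative helicase complex, fell most clearly (-0.77, SE 0.10, adjusted p = 1.25e-05), and among the others that fell were the polymerase subunit POLD3 (-0.40, SE 0.12) and RFC3, of the clamp loader (-0.43, SE 0.12). The primase subunit PRIM2 went the other way (0.87, SE 0.12, adjusted p = 1.84e-05), as did DUT, which clears dUTP (0.37, SE 0.11).

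G1 genes had 5 of 13 higher (38.5%, beside 18.5% of all tested genes) and 1 lower (7.69%, beside 19.8%), with a median of 0.09. CCND1 and CCND3, which are among the D cyclins that start the cycle, rose by 0.60 (SE 0.11, adjusted p = 0.000527) and 0.85 (SE 0.13, adjusted p = 5.63e-05). Their partner CDK6 rose by 0.66 (SE 0.09), and the other partner, CDK4, fell (-0.29, SE 0.07). CCND2, also a D cyclin, went from 16 CPM on gel to 16.8 CPM on plastic in male cells and from 17.3 to 15.4 CPM in female cells. The E2F, RB and DREAM list had 2 of 19 higher (10.5%) and 4 lower (21.1%, close to the share of all tested genes). With the block 3 were higher (beside 20.4% of all tested genes) and 4 lower (beside 20.8%). MYBL2, which drives G2 genes, rose by 0.84 (SE 0.22, adjusted p = 0.00636), and so did RB1, which restrains E2F (0.63, SE 0.10). TFDP2, a partner of the E2F factors, fell (-0.89, SE 0.09, adjusted p = 8.38e-07), as did RBL2, the DREAM pocket protein (-0.40, SE 0.10), while FOXM1 was not called (0.35, SE 0.26, adjusted p = 0.308).

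CDK inhibitors and arrest genes moved both ways, with 4 of 11 tested genes higher (36.4%, beside 18.5% of all tested genes) and 5 lower (45.5%, beside 19.8%). With the block 4 were higher (beside 20.4% of all tested genes) and 6 lower (beside 20.8%). CDKN2B (p15), an inhibitor of CDK4 and CDK6 induced by TGF-beta, rose by 1.29 (SE 0.19, adjusted p = 5.27e-05), and CDKN1B (p27), the inhibitor typical of resting cells, rose by 0.62 (SE 0.11). GADD45A, a growth arrest gene, rose by 1.09 (SE 0.19). CCNG2, a cyclin linked to arrest, fell (-0.92, SE 0.12, adjusted p = 1.14e-05), and CDKN1A (p21) fell (-0.30, SE 0.09, adjusted p = 0.0128). The lists were assembled with earlier results of these data known, and their counts are a description.

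**Figure D5:**
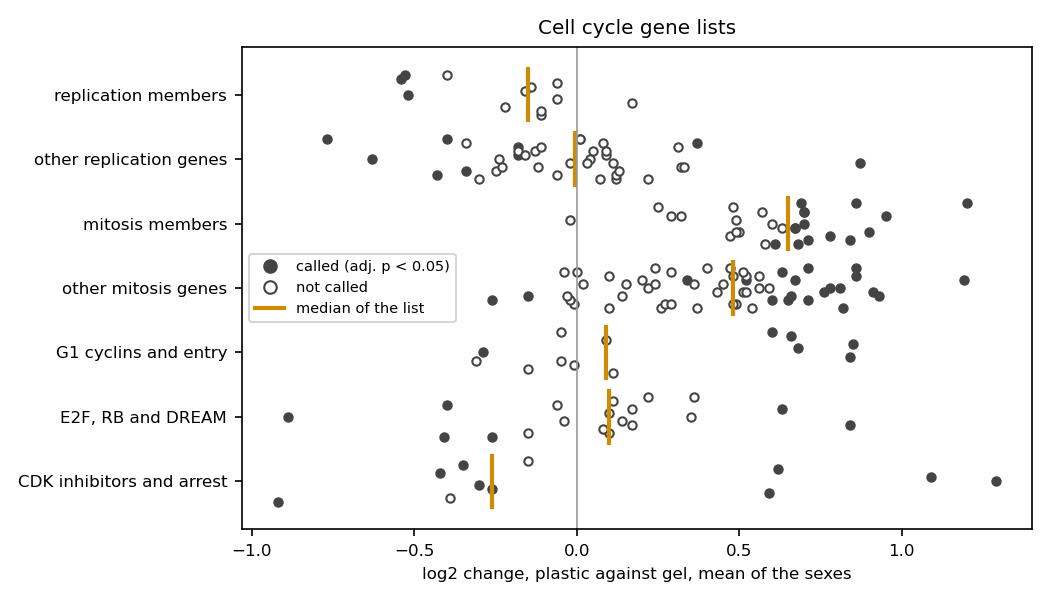
Log2 change on plastic against gel, as the mean of the sexes (x axis), for every tested gene of each list (points, filled where called) with the median of the list (bar). The medians are 0.65 and 0.48 for the mitosis lists, and -0.15 and -0.01 for the replication lists.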

How the data were processed

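PolyA RNA was sequenced in 16 libraries of porcine valve interstitial cells, 4 in each of 4 groups. Per the submitters' processing notes, FastQC 0.11.5, Trimmomatic 0.36, HISAT2 2.1.0, SAMtools 1.3.1 and featureCounts were used with the pig build Sscrofa11.1; the strand setting is not given in the sources used here. The deposited values are whole-number counts per gene, not normalized by the authors. Of 29576 entries, 24 with a number in place of a name (0.169% of counts) were left out.

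Counts were tested with edgeR 4.0.16 (R 4.3.3) by its quasi-likelihood test, with TMM factors of 0.896 to 1.124, the default filter by expression and 4 group means over all 16 libraries. Genes with a Benjamini-Hochberg adjusted p under 0.05 over 14530 genes were called. CPM use the TMM-scaled totals. Log2 changes are for plastic minus gel, or female minus male. Depth was 16.93 to 27.48 M counts per library. Libraries of 1 group differed by more than counting error (chi-square per degree of freedom at least 9.93 in 24 pairs), so none was taken as a repeat. On simulated counts for the male comparison (14304 genes, 14106 of them unchanged), 63.6% of changes of 1 on the log2 scale and 11.1% of changes of 0.5 were called. Of the unchanged genes 0.0142% were called. In the real male comparison 25.8% of tested genes were called, many more than were changed in the simulation, so these rates need not hold for it.

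The labels give replicate numbers shared by both surfaces. Same-numbered libraries of 1 sex correlated in their deviations from the group means in 8 of 8 pairs (r from 0.13 to 0.49). Of 16 libraries, 16 matched their own number best. A fit with the number as a block is therefore given where it changes a printed count of calls. Values in every library are printed for genes called in any comparison and for a set of common markers. Of the other lists, up to 4 called genes per direction by adjusted p were eligible to be named, with FOXM1, MYBL2, CCND1, CDKN1A and CDKN1B in any case. CCND2 is given in addition, beside CCND1 and CCND3. One gene eligible under this rule is not reported here. Alternatives were RLE factors, DESeq2 1.42.0, limma-voom (limma 3.58.1), no filter, at least 1 CPM in at least 4 libraries, only the 8 libraries compared, the block, and leaving out each library. After seeing the data, 3 exclusions of cultures or libraries were added. The members and lists were chosen with earlier results of these data known. No sequence was used here, and promoter motifs were not analysed here. If replicates do not come from separate animals, p-values measure only the spread between these samples.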

Additional observations from a re-analysis of the deposited data

Results flagged for a closer look

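Of 172 sets of 4 values (a gene or sum in 1 group), 18 had a highest or lowest library far from the other three, with a gap to the nearest of them above Dixon's critical share of the range. Chance gives about 5% of such sets, and the sets share libraries. In 17 of the 18 the library was female plastic 1, the highest of its group. Its values among replication genes were 21.3 CPM of MCM2, 39.1 CPM of MCM7 and 69.7 CPM of RRM2. Among cyclins and kinases they were 20.9 CPM of CDK1, 18.7 CPM of CCNA2, 46.6 CPM of CCNB1, 15.6 CPM of AURKA and 7.9 CPM of AURKB. Checkpoint and APC/C genes gave 32.3 CPM of BUB1, 25.8 CPM of TTK, 23 CPM of MAD2L1 and 26 CPM of CDC20. Of the spindle and midzone genes, CENPA was at 11.4 CPM, KIF2C at 14 CPM, KIF20A at 60 CPM, PRC1 at 56.9 CPM and BIRC5 at 11.7 CPM. The other library was female gel 2, the lowest of its group, with 4.02 CPM of AURKA. Female plastic 1 also had the highest sum of endothelial markers, 542 CPM, and the lowest myofibroblast sum on plastic, 15200 CPM. The part of either in these values was not tested.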

How the results depend on the processing

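In the mean of the sexes, 15 genes rose and 3 fell. Over RLE factors, DESeq2, limma-voom and both other filters, 14 to 18 rose and 3 fell; leaving out 1 library gave 11 to 21 and 2 to 4. The paired fit with the replicate block gave 24 risen genes. Single-sex counts moved more, and the cause was not tested. The number of all genes called moved as well when 1 library was left out. It was 5098 to 6262 in the mean of the sexes (5562 in the main fit), 2859 to 3961 in male cells (3748) and 2780 to 4444 in female cells (3476). For the other alternative fits, apart from the block, the share of all genes called is not given, so their counts are a description. The male count of 8 risen and 0 fallen genes was 18 and 2 with the replicate block, 17 and 1 with only the 8 male libraries, 16 and 1 without the culture female 1, 15 and 1 without the cultures male 4, female 1 and female 4, 15 and 1 with male gel 2 and female plastic 1 both left out, and 3 to 15 and 0 to 1 when 1 library was left out. The female count of 5 risen and 1 fallen gene was 11 and 3 with the replicate block and 2 and 0 with only the 8 female libraries. With RLE factors 0 fell. It was 1 risen without the cultures male 4, female 1 and female 4, 2 and 4 with male gel 2 and female plastic 1 both left out, and 2 to 9 and 0 to 4 when 1 library was left out. MCM2 turned from -0.14 to 0.09 without the cultures male 4, female 1 and female 4 and was called in neither fit. Calls between the sexes and of the difference in surface change were 0 of 40 when any 1 library was left out. A fit of only 8 libraries could not be made for the mean of the sexes. In the simulated counts, where few genes changed, changes under about 1 on the log2 scale in 1 sex were often missed.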
